A study of Mus musculus with 112 samples.

Results

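Lysozyme and other products of Paneth cells were followed through the 3 sorted crypt populations of the study. The set holds 8 genes of the 32285 listed in the deposited count table, taken by symbol: Lyz1, Lyz2, Mmp7, Itln1, Ang4, Mptx2, Habp2 and Nupr1. Of these, Lyz1, Mmp7, Itln1, Ang4 and Mptx2 encode secreted defence proteins. Habp2 encodes a secreted serine protease of the blood plasma, Nupr1 a small stress-induced nuclear protein, and Lyz2 the lysozyme best known from macrophages, so the name granule products does not describe all 8.

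RNA was measured in young mice of 2 to 3 months and aged mice of 23 to 27 months, with males and females in every group. All animals were C57BL/6 and carried Lgr5-eGFP-IRES-CreERT2, a reporter allele in which the promoter of the stem cell gene Lgr5 drives GFP, and which is known for mosaic expression. The young controls carried it too. Cells came from crypts of the proximal small intestine and were sorted by flow cytometry. Intestinal stem cells (ISCs) were high for GFP and Epcam and low for CD24, progenitors had medium or low GFP, and Paneth cells lacked GFP and had high CD24 and high side scatter. The Paneth set comprised 12 young and 12 aged animals, the progenitor set 10 and 10, and the ISC set 11 and 12.

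Paneth cells sit at the base of the crypt and release granules of antimicrobial proteins into the lumen. Lysozyme cleaves the peptidoglycan of bacterial walls, and mice carry a pair of lysozyme genes, Lyz1, the form of the Paneth cell, and Lyz2. Mmp7, a matrix metalloprotease, activates the precursors of mouse alpha-defensins by cutting them. Itln1 is a lectin that binds microbial sugars, Ang4 an antimicrobial ribonuclease, and Mptx2 a mucosal pentraxin.

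Levels are given as CPM scaled by the trimmed mean of M values (TMM CPM, where CPM is counts per 1 M counts), in one scaling of all 67 samples, with the technical libraries of each Paneth animal summed. Samples held 2.18 to 5.59 M counts in ISCs, 2.48 to 7.57 M in progenitors and 2.82 to 11.8 M in Paneth cells, of which 1.09 to 5.68 M in Paneth cells came from nuclear genes. In 13 animals the ISC column name ends in an added 1, the meaning of which is not stated, and these are called marked animals below. They account for 7 of 24 Paneth samples, 13 of 23 ISC samples and no progenitor sample. The glycolytic gene Gapdh stood at 124 to 198 counts per 1 M nuclear counts in marked Paneth samples against 430 to 1110 in the others, and at 149 to 267 against 596 to 1050 in ISCs. The marked samples therefore stand apart in libraries of both populations, and results are given with and without them.

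Lyz1 (ENSMUSG00000069515, chromosome 10, 117287797 to 117292868) and Lyz2 (ENSMUSG00000069516, chromosome 10, 117277331 to 117282321) are neighbours on the minus strand of GRCm38, with 5476 bases between them. Their coding sequences are each 447 bases long and the part near the 3' end is shown because it decides how well short reads can tell the genes apart. They are identical at 425 bases (95.1%) and differ at 22, of which 14 lie in the first 147 bases. The last 300 coding bases (148 to 447) of transcripts Lyz1-201 and Lyz2-201 in GENCODE M21, nearest the 3' end that was read, follow with their 8 differing bases in capitals:
Lyz1 coding: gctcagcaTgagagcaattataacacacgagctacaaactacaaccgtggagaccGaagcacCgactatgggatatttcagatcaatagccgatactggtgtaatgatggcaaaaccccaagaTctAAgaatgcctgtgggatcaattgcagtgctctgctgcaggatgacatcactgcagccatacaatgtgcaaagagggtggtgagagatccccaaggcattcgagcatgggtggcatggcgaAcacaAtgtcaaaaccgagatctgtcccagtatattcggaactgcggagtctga
Lyz2 coding: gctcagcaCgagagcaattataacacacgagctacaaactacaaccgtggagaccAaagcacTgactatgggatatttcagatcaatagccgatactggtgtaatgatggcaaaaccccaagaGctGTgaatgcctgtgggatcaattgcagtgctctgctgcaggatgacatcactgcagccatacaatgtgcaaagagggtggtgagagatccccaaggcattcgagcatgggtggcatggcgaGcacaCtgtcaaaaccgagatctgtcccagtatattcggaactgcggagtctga
Near the 3' end, where the libraries were read, 19.1% of 50-base windows in the last 400 bases of the Lyz1 transcript occur unchanged in Lyz2, and 17.7% of those of Lyz2 occur in Lyz1. The same share was 8.83% for Ang4, with Ang5 and Ang2, and 1.14% for Mptx2, with Mptx1. Mmp7, Itln1, Habp2 and Nupr1 shared no window. The sources do not say how reads matching more than 1 gene were counted, so counts of Lyz2 and Ang4 are uncertain by an unknown amount.

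Upstream, the neighbouring lysozyme genes resemble each other close to the start, and position by position this match is lost further out. Without gaps, the 125 bases next to the RefSeq start were 92.0% identical and the 125 before those 29.6%. The far parts still hold similar runs at slightly shifted positions, and no comparison with gaps was made. The lower share is therefore no measure of how far the sequences diverged. The stretch from 250 to 51 bases before each start (RefSeq, GRCm38.p6, minus strand) is shown for this change, with differing bases in capitals. It lies at chr10:117292919-117293118 for Lyz1 and at chr10:117282323-117282522 for Lyz2:
Lyz1 promoter: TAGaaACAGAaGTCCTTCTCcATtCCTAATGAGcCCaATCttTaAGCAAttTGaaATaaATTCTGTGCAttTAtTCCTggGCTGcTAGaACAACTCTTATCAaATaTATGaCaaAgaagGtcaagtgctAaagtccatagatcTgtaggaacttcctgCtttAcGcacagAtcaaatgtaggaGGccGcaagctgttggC
Lyz2 promoter: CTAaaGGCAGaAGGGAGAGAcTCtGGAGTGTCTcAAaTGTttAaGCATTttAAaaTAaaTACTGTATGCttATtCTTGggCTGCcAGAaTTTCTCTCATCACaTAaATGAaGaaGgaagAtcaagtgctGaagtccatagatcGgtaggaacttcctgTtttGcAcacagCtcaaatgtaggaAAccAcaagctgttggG
The 250 bases before each of 9 starts of the 8 genes were searched on both strands for TATAAA, the E-box CAGCTG, the TCF/LEF core CTTTGA and the SOX core ATTGTT. They occur in 12.4%, 13.0%, 13.8% and 9.42% of all 32851 RefSeq promoters of that length. Lyz1, Lyz2, Ang4 and Habp2 held none of these letters in the window. Mmp7, which has a pair of listed starts, held TATAAA at 26 bases before the first, where a TATA box would stand, and again at 123 bases, and is shown with those letters in capitals (chr9:7691840-7692089, plus strand):
Mmp7 promoter: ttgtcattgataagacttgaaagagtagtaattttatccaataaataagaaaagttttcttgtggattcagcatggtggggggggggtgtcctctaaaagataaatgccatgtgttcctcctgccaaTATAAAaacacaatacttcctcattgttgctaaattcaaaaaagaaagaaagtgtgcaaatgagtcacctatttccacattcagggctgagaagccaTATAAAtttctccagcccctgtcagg
Mmp7 also held ATTGTT at 101 bases before its first start and at 230 before its second, and CTTTGA at 246 before its second. ATTGTT occurred upstream of Itln1 at 162 bases and of Mptx2 at 125 bases, and CAGCTG upstream of Nupr1 at 211 bases. Matches of this length are common, as the shares over all promoters show, and are given as a description only.

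All 8 genes were far higher in Paneth cells than in either other population, in young and in aged mice. By the edgeR quasi-likelihood test, 29.2% of 13287 genes tested passed an adjusted p of 0.05 in either direction between young Paneth cells and ISCs, and 26.1% between young Paneth cells and progenitors. All 8 members passed in both, each with the higher level in Paneth cells. In aged mice 30.1% and 24.8% of genes passed, and again all 8 members. Lyz2 failed the filter on low counts within ISCs and within progenitors, and Habp2 within ISCs. They entered these fits through their Paneth level, so their calls there add nothing to the levels themselves. The lowest Paneth sample lay above the highest sample of both other populations for every member. The share of all genes without such overlap is not given, here or for the single genes below. The gate chose Paneth cells by CD24 and granularity, so a high level of granule genes there is also a check of the sort.

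Lyz1 spanned 33100 to 92300 TMM CPM in young Paneth cells, with a median of 57700, against 188 to 359 in young progenitors (median 242) and 64.5 to 415 in young ISCs (median 144). No Paneth sample came near the others. The difference was 8.56 ± 0.43 on the log2 scale from ISCs (estimate ± SE, edgeR adjusted p = 8.67e-24) and 7.82 ± 0.43 from progenitors (edgeR adjusted p = 4.89e-22). Lyz1 alone took a median of 6.97% of nuclear counts in young Paneth samples, and the 8 members together 12.3%.

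Mmp7 (ENSMUSG00000018623, chromosome 9, 7692090 to 7699585), the convertase of defensin precursors, spanned 2420 to 7430 TMM CPM in young Paneth cells (median 3280). It stood at 85.6 to 248 in young progenitors (median 120) and at 7.28 to 32.9 in young ISCs (median 18.2). The 3 populations did not overlap. Progenitors were thus intermediate, 2.93 ± 0.30 above ISCs on the log2 scale (edgeR adjusted p = 1.23e-11) and 4.69 ± 0.33 below Paneth cells, a 25.8-fold gap (edgeR adjusted p = 1.08e-17). The gene AV064505 overlaps Mmp7 on the opposite strand, and the use of strand in counting is not stated, so reads of the pair may be mixed.

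Itln1 (ENSMUSG00000038209, chromosome 1, 171518122 to 171535294), the lectin, followed the same order. Its TMM CPM ran from 24200 to 65300 in young Paneth cells (median 34100), from 234 to 552 in progenitors (median 364) and from 42 to 236 in ISCs (median 64.9). The highest ISC sample touched the lowest progenitors, and Paneth samples stood apart. Paneth cells exceeded ISCs by 8.78 ± 0.37 on the log2 scale (edgeR adjusted p = 7.71e-27), and progenitors exceeded ISCs by 2.18 ± 0.28 (edgeR adjusted p = 5.45e-09).

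Ang4 (ENSMUSG00000060615, chromosome 14, 51763878 to 51773590), the ribonuclease, ranged from 3410 to 11700 TMM CPM in young Paneth cells (median 4830). Progenitors held 40 to 203 (median 59.7) and ISCs 2.32 to 37.1 (median 11.7), with no overlap between the 3 populations. Ang4 was 8.63 ± 0.54 above ISCs in Paneth cells on the log2 scale (edgeR adjusted p = 1.04e-19) and 2.33 ± 0.42 above them in progenitors (edgeR adjusted p = 1.63e-05).

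Mptx2 (ENSMUSG00000079180, chromosome 1, 173274382 to 173277777), the pentraxin, ran from 2760 to 10200 TMM CPM in young Paneth cells (median 4020). It spanned 2.13 to 46.9 in progenitors (median 11.3) and 1.22 to 18 in ISCs (median 6.89), and these 2 populations overlapped. Its gap between Paneth cells and ISCs was 9.29 ± 0.70 on the log2 scale (edgeR adjusted p = 1.41e-16), while that between progenitors and ISCs, 1.13 ± 0.54, did not pass (edgeR adjusted p = 0.131).

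Habp2 (ENSMUSG00000025075, chromosome 19, 56287137 to 56320822), the protease, was at 48 to 230 TMM CPM in young Paneth cells (median 121). It was at 0.275 to 3.02 in progenitors (median 0.821) and at 0 to 3.85 in ISCs (median 0.406), where 7 of 11 samples held any count. The young Paneth level was 7.36 ± 0.62 above ISCs on the log2 scale (edgeR adjusted p = 1.03e-14), and the 0.80 ± 0.70 between progenitors and ISCs did not pass (edgeR adjusted p = 0.462). Habp2 failed the filter on low counts within ISCs, which limits both tests. Nrap overlaps Habp2 on the opposite strand.

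Nupr1 (ENSMUSG00000030717, chromosome 7, 126623249 to 126630861), the stress-response regulator, spanned 116 to 464 TMM CPM in young Paneth cells (median 218). Progenitors held 1.18 to 19.1 (median 9.13) and ISCs 0.15 to 5.34 (median 1.52). Progenitors and ISCs overlapped, yet the progenitor level was 1.95 ± 0.53 higher on the log2 scale (edgeR adjusted p = 0.00426). The step from progenitors to Paneth cells was 4.84 ± 0.52 (edgeR adjusted p = 8.92e-11).

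Without the marked animals all 8 members again passed in Paneth cells against ISCs in young mice, with Lyz1 at 8.82 and Itln1 at 9.02 on the log2 scale. In aged mice the 8 differences ran from 6.42 to 9.49 against ISCs and from 4.75 to 8.48 against progenitors. Sorted fractions can hold a few cells of other types, and in bulk samples a smaller number of cells of a type and less RNA per cell cannot be told apart. This holds for every low level in progenitors and ISCs above.

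**Figure D1:**
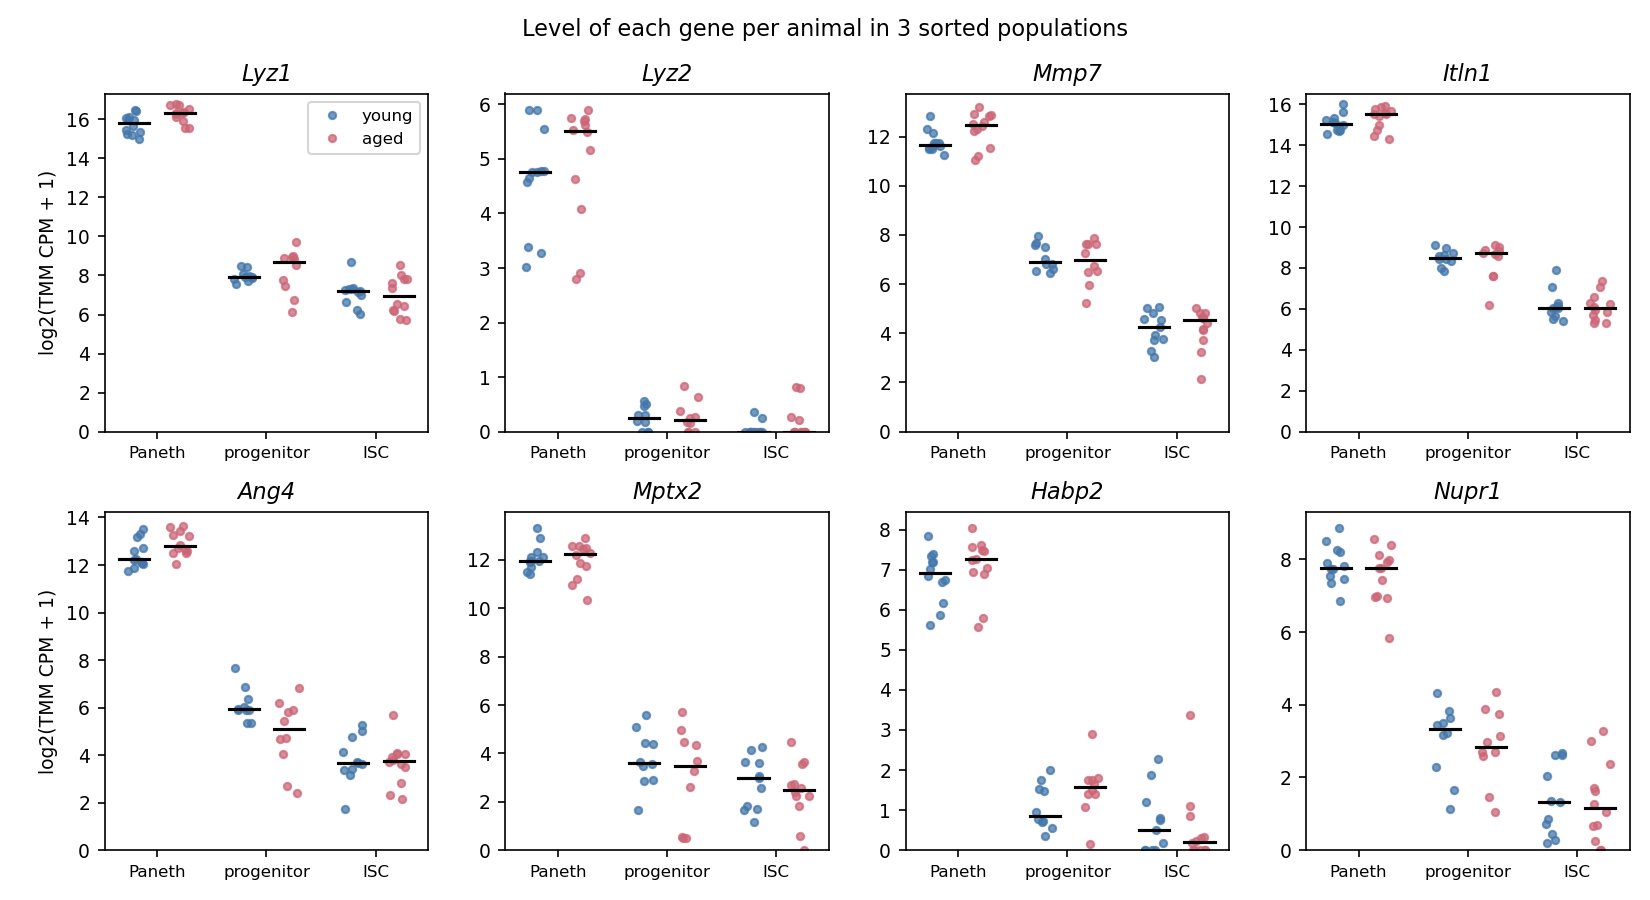
Each point is 1 animal, with log2(TMM CPM + 1) on the vertical axis for the 8 genes in Paneth cells, progenitors and ISCs, young in blue, aged in red and medians as bars. In every panel all Paneth points lie above all others, and for Mmp7 and Ang4 the young progenitors form a middle tier.

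Lyz2 was rare next to its neighbour. It gave 993 counts in young and 1672 in aged Paneth samples, at 7.11 to 58.9 TMM CPM in the young (median 26.1). In progenitors it gave 11 counts in the young and 16 in the aged, in 7 of 10 samples each. In young ISCs it gave 3 counts in 2 of 11 samples, or 0.0694 per 1 M counts (exact Poisson 95% interval 0.0143 to 0.203), against 12.1 per 1 M in young Paneth cells (11.4 to 12.9). These intervals cover counting error only, and no fold is given against so few counts.

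Set against Lyz1 counts, Lyz2 kept to a narrow range within each set of Paneth samples. The 17 unmarked Paneth samples held 5.09 to 7.85 Lyz2 counts per 10,000 Lyz1 counts (median 5.97), while the 7 marked ones held 1.12 to 2.13 (median 1.34). The ranges did not overlap, nor did those of single technical libraries, 4.11 to 9.68 in 48 libraries and 0.576 to 3.33 in 21. Lyz1 itself overlapped widely, at 33100 to 108000 TMM CPM in unmarked samples (median 72000) and 47400 to 112000 in marked ones (median 64600). Pooled over 20 progenitor samples, Lyz2 stood at 6.54 per 10,000 Lyz1 counts (exact Poisson 95% interval 4.31 to 9.52, 27 counts). In ISCs the pooled share was 6.32 in marked samples (3.27 to 11) and 4.15 in unmarked ones (0.502 to 15). The intervals of progenitors and of both ISC sets thus include the 5.96 of unmarked Paneth cells. In young mice Lyz1 was 226-fold lower in progenitors and 378-fold lower in ISCs. The interval of marked ISCs lay above the 1.57 of marked Paneth cells, but it rests on 12 counts. Lyz2 was at 0.765 and 0.738 TMM CPM in ISC aged male replicate 6 and ISC aged female replicate 1, both marked. It was lower in every other ISC sample. All these intervals cover counting error only, not the spread between animals, so no difference between the populations is drawn from them. The share of Lyz2 counts that stems from Lyz1 reads was not tested. Of 20 myeloid markers 14 had a median below 1 TMM CPM in Paneth cells. The sum of the 20 ran from 44.4 to 104 in the young and from 44 to 202 in the aged. Of 7 markers tested, 2 were higher in young Paneth cells than in ISCs, Coro1a (6.53) and Ptprc (6.33), and none lower. That share is near the 29.2% of all genes past the threshold. Of 6 B, plasma and T cell markers, 5 were higher in the same comparison. Against young progenitors 3 of the 7 myeloid markers were higher and none lower, beside 26.1% of all genes. In aged mice 2 were higher and 1 lower against ISCs (Cd14, -1.48). Against aged progenitors 3 were higher and 1 lower (Itgam, -2.12). A part of myeloid cells in the Lyz2 counts was not tested. AV064505, antisense to Mmp7, differed between the sets in the same way, at 143 to 208 per 10,000 Mmp7 counts in marked samples and 219 to 589 in the others.

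**Figure D2:**
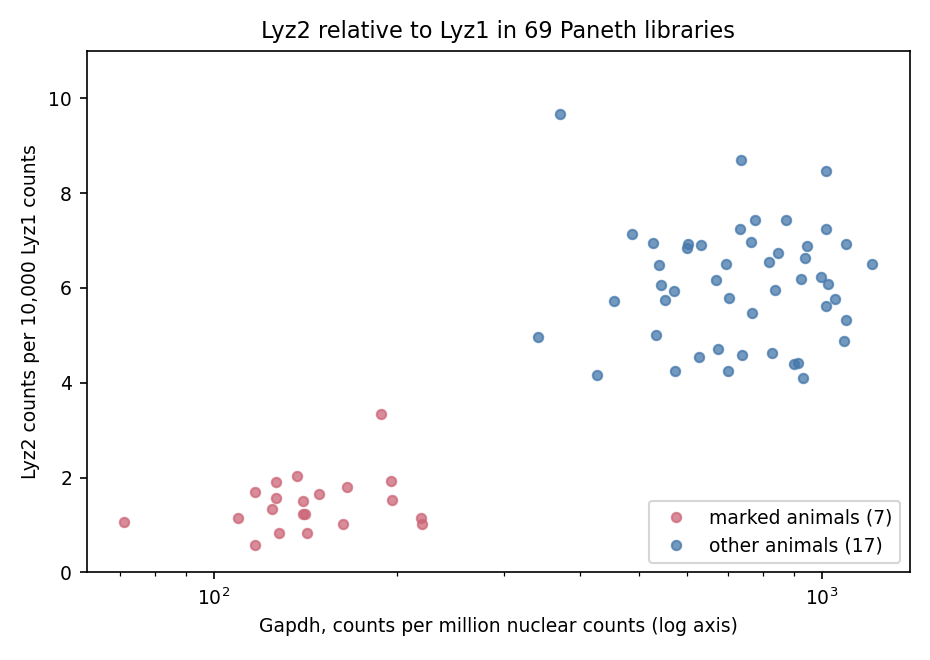
Each point is 1 of 69 Paneth libraries, with Gapdh per 1 M nuclear counts on a log axis and Lyz2 counts per 10,000 Lyz1 counts on the vertical axis, marked animals in red and others in blue. The 21 libraries of marked animals form a separate cloud at 0.576 to 3.33, below the 4.11 to 9.68 of the rest.

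Between progenitors and ISCs, 4 members were higher in progenitors in young mice, against 22.7% of all genes past the threshold in either direction. They were Mmp7, Itln1, Ang4 and Nupr1. Lyz1 (0.74 ± 0.31 on the log2 scale, edgeR adjusted p = 0.0804), Mptx2 and Habp2 did not pass. Lyz2 is not read here, since its 11 counts in progenitors and 3 in ISCs are too few and it entered the fit only through its level in Paneth cells. Habp2 failed the filter on low counts within ISCs, which limits its test as well. In aged mice 5 members passed against 25.1% of genes: Mmp7 (2.72 ± 0.29), Itln1 (2.27 ± 0.27), Nupr1 (1.67 ± 0.51), Ang4 (1.44 ± 0.40) and Lyz1 (1.20 ± 0.31), with edgeR adjusted p = 0.011 at most. Some animals gave both populations. With the animal as a replicate block in limma-voom, Lyz1 and Ang4 lost the call (limma-voom adjusted p = 0.255 and 0.448) and Habp2 gained it (2.59, limma-voom adjusted p = 0.00976). The same 3 calls changed in limma-voom without the block (adjusted p = 0.265, 0.467 and 0.00967). Habp2 also passed without the marked animals (2.16, edgeR adjusted p = 0.0221). Lyz1 passed in young mice without ISC young female replicate 1 (1.01, edgeR adjusted p = 0.0103), whose 415 TMM CPM was the highest young ISC value, and without the marked animals (1.09, edgeR adjusted p = 0.0441). Lyz1 was higher in marked than in unmarked ISC samples, with medians of 164 and 74.4 TMM CPM. Without the animals of 26 and 27 months only Mmp7 and Itln1 kept the call in aged mice (Nupr1 1.17, Ang4 1.00 and Lyz1 0.97, edgeR adjusted p = 0.177, 0.17 and 0.0673). The aged ISC males of 26 and 27 months were all unmarked and the other aged ISC males all marked. Age in months and marking therefore cannot be told apart there.

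The members did not stand in the same proportion in the 3 populations. Ratios of counts to Lyz1 within a sample need no scaling between samples and were compared with permutation within sex, 20 comparisons in all, chosen after the data were seen. Lyz1 itself was 7.82 (log2) higher in young Paneth cells than in progenitors and 8.56 higher than in ISCs. The medians of all genes were 0.007 and -0.014. A gene near these medians thus also rises against Lyz1 outside Paneth cells. A higher ratio shows only a smaller gap than that of Lyz1, and no value over all genes is given. In young Paneth cells Mmp7 gave 4.87 to 8.72% of the Lyz1 count (median 6.46), in young progenitors 26.9 to 110% (median 50.5) and in young ISCs 4.69 to 51% (median 12.7). Every progenitor lay above every Paneth sample. The log2 ratio was higher by 3.06 in young and 2.61 in aged progenitors than in Paneth cells (permutation test, adjusted p = 6.67e-05 in both, 10 against 12 samples), and by 0.96 and 1.08 in young and aged ISCs (permutation test, adjusted p = 0.0118 and 0.000625). Without the marked animals the ISC differences were 1.53 and 1.79.

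Nupr1 shifted likewise. Its count was 0.296 to 0.672% of Lyz1 in young Paneth cells (median 0.432) and 0.361 to 8.28% in young progenitors (median 3.36). The ratio differed by 2.71 on the log2 scale in young and 3.12 in aged progenitors (permutation test, adjusted p = 0.000143 and 6.67e-05), and the aged groups did not overlap. Itln1 was higher relative to Lyz1 in progenitors by 1.18 in the young and 1.05 in the aged (permutation test, adjusted p = 6.67e-05 for both). Its ratio in young and aged ISCs differed from that of Paneth cells by -0.27 and 0.04 (permutation test, adjusted p = 0.102 and 0.898), and without the marked animals the aged difference was 0.53 (permutation p = 0.0372, unadjusted). Mptx2 went the other way, at -0.72 in young and -1.37 in aged progenitors (permutation test, adjusted p = 0.0687 and 0.0105).

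The Ang4 ratio passed in young progenitors and not in aged ones. It was 1.40 above the Paneth ratio in young progenitors (permutation test, adjusted p = 6.67e-05) and -0.02 in aged ones (adjusted p = 0.942). Ang4 gave 15.1 to 87.5% of the Lyz1 count in young progenitors (median 25.2) and 4 to 41% in aged ones (median 7.57), so the groups overlapped. The difference between these ages was not tested for the ratio itself. Some animals gave more than 1 population, which the permutations ignore. Without the marked animals the Mmp7 and Itln1 differences in young progenitors were 2.93 and 1.11, and the Nupr1 difference in aged ISCs was 0.83 instead of 1.87 (permutation p = 0.177).

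**Figure D3:**
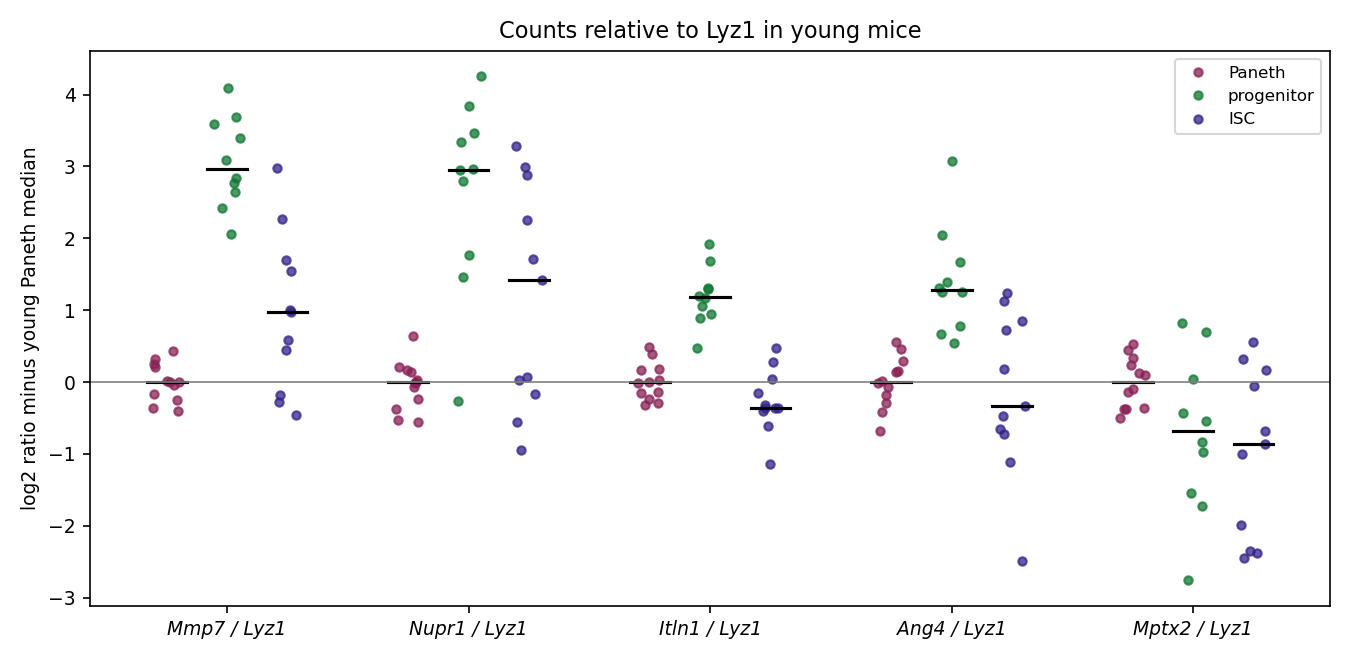
Points are young animals, with the log2 count ratio to Lyz1 minus the young Paneth median on the vertical axis for 5 genes, coloured by population, with medians as bars. Progenitors stand above Paneth cells for Mmp7 without overlap, and for Nupr1, Itln1 and Ang4 with overlap.

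Did the products change with age in Paneth cells? None of the 8 members passed the edgeR test, where 0.0686% of 11663 genes did (8 genes). At an unadjusted p below 0.05 there were 2 members and 797 genes, and neither DESeq2 nor limma-voom called a member. The median member difference was 0.32 on the log2 scale, with 6 of 8 above 0, against a median of 0.008 over all genes. The members varied together in these samples (median r of 0.827 over 21 pairs without Lyz2). They are therefore not separate observations of an age effect. The share of all genes above 0 is not given.

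Lyz1 and Mmp7 had the smallest p. In aged Paneth cells Lyz1 ran from 47400 to 112000 TMM CPM (median 81900), from the 33100 to 92300 given above for the young. The groups overlapped, 10 of 12 aged samples lay above the young median and 4 above the highest young sample. The difference was 0.49 ± 0.16 on the log2 scale (edgeR p = 0.00353, adjusted p = 0.367). Mmp7 stood at 2120 to 9420 in the aged (median 5700), with 9 of 12 above the young median of 3280. Its difference was 0.58 ± 0.20 (edgeR p = 0.00799, adjusted p = 0.447). Without Paneth young female replicate 6, the highest young sample at 7430, it was 0.74 and passed (edgeR adjusted p = 0.0491).

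Ang4 ran from 4200 to 12700 TMM CPM in aged Paneth cells (median 7080), with 11 of 12 above the young median and a difference of 0.37 ± 0.22 (edgeR adjusted p = 0.811). Itln1 ran from 20100 to 61000 (median 47300, difference 0.24 ± 0.15, edgeR adjusted p = 0.824). Habp2 spanned 46.2 to 262 (median 152, difference 0.28 ± 0.22, edgeR adjusted p = 0.894). All 3 overlapped the young range widely. Lyz2 spanned 5.99 to 58.8 (median 44.7, difference 0.37 ± 0.36, edgeR adjusted p = 0.924), with the marked aged samples at 5.99 to 23.8 and the others at 34.8 to 58.8. Mptx2 ran from 1290 to 7690 (median 4880) and Nupr1 from 55.8 to 376 (median 216), with differences of -0.09 ± 0.27 and -0.25 ± 0.24 (edgeR adjusted p = 0.985 and 0.921). Without the marked animals Lyz1 differed by 0.58 and Mmp7 by 0.62, and in the marked animals alone, 3 young and 4 aged, by 0.12 and 0.32.

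**Figure D4:**
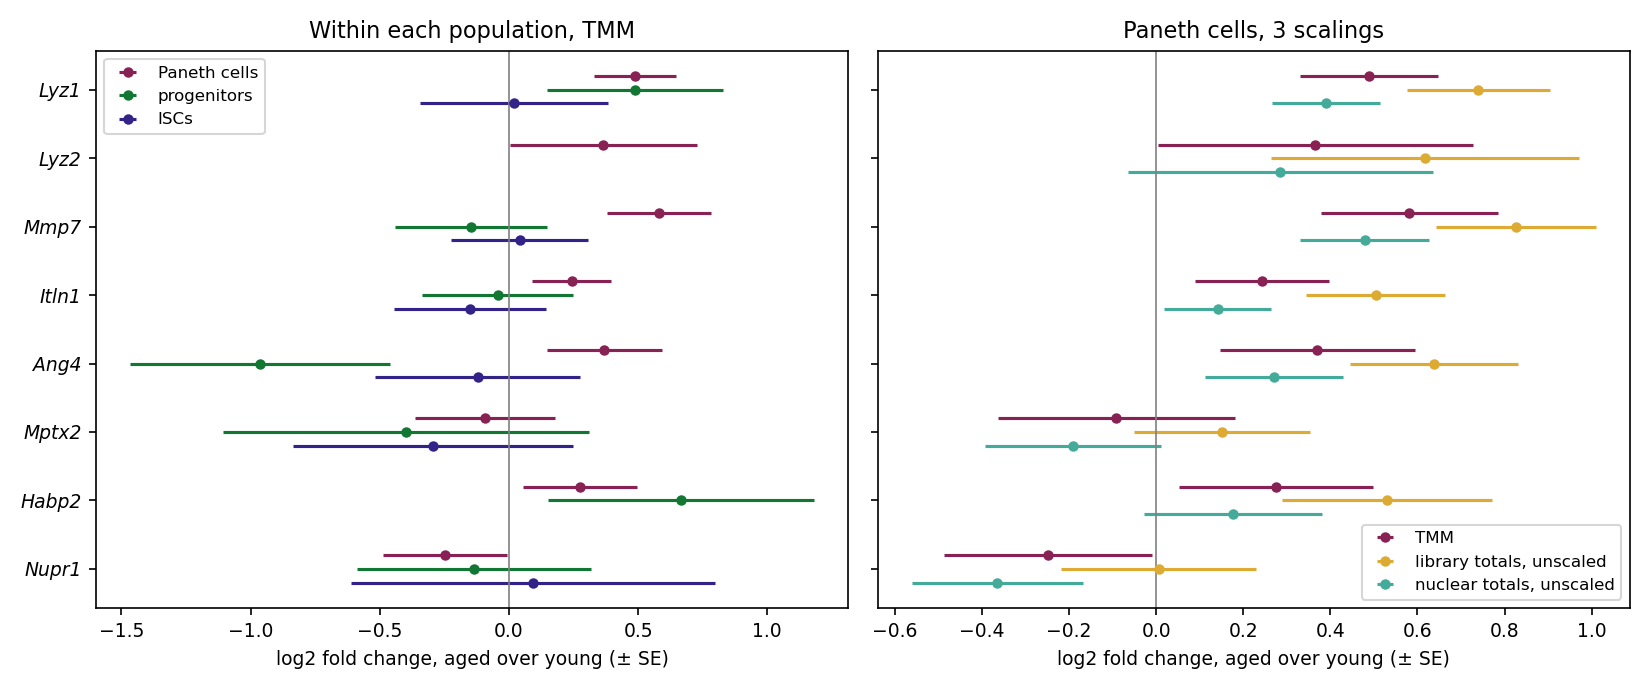
Points are log2 fold changes of aged over young with SE bars, on the left within each population and on the right for Paneth cells under 3 scalings. No member passes on the left, where Lyz2 was not tested outside Paneth cells and Habp2 not in ISCs, and unscaled library totals shift all 8 genes to higher values, with Lyz1 at 0.74 and Mmp7 at 0.83.

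The age difference depended on what the counts were set against. Transcripts of the mitochondrial genome took 51.4 to 73.4% of counts in young Paneth samples (median 61.3) and 31.4 to 65.8% in aged ones (median 55.0). Averaged within sex the aged share was 10.5 points lower (permutation p = 0.00893, adjusted p = 0.0783 over 24 such measures), and the ranges overlapped. With library totals left unscaled, Lyz1 differed by 0.74 ± 0.17 and Mmp7 by 0.83 ± 0.18 on the log2 scale, and both passed (edgeR adjusted p = 0.0325 and 0.0319). The median of all genes then stood at 0.24. With mitochondrial genes left out and totals unscaled, Lyz1 was at 0.39 and Mmp7 at 0.48 (edgeR adjusted p = 0.357 and 0.318), with the median of all genes at -0.10. As a share of all counts Lyz1 went from a median of 2.5% (1.44 to 3.78) to 4.0% (2.29 to 7.03), and as a share of nuclear counts from 6.97% to 8.73%. The 8 members together took 8.93 to 17.6% of nuclear counts in the young (median 12.3) and 9.83 to 18.3% in the aged (median 15.9).

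**Figure D5:**
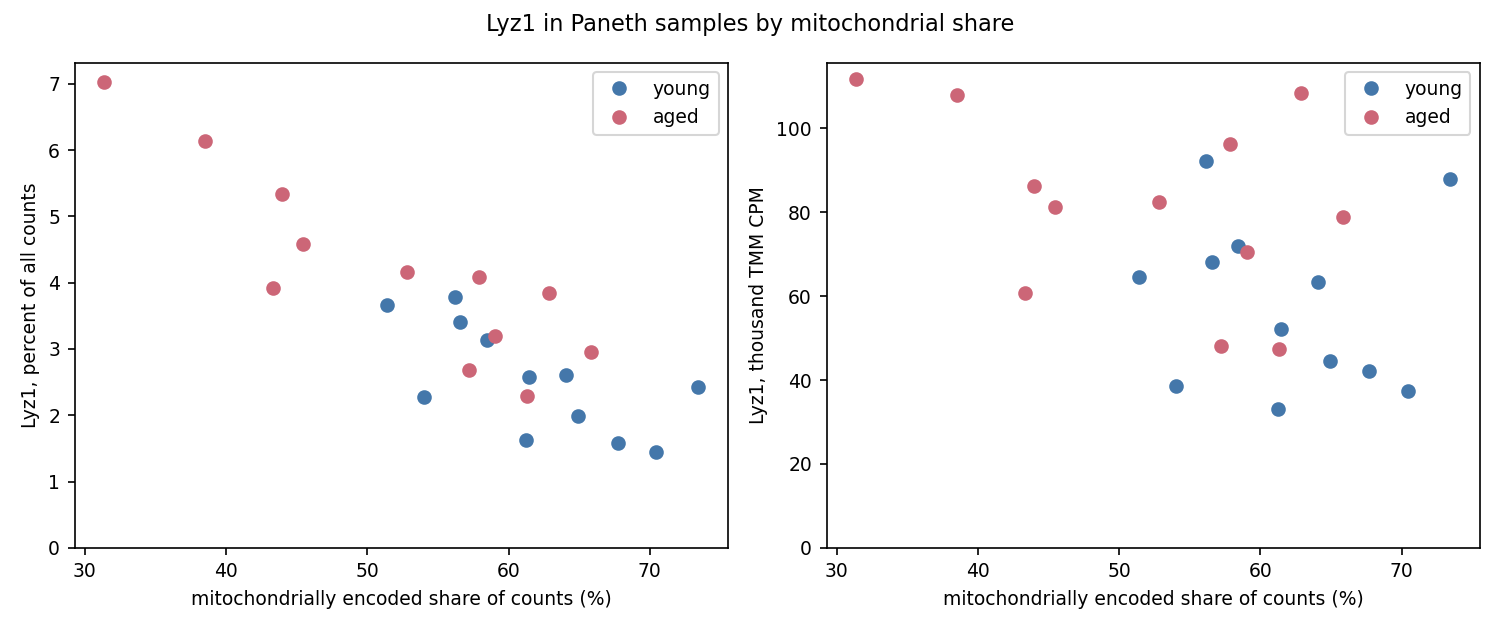
Points are Paneth samples, young in blue and aged in red, with the mitochondrially encoded share of counts in percent on the horizontal axis and Lyz1 as percent of all counts on the left or in TMM CPM (axis in units of 1000) on the right. Lyz1 as a share of all counts is high where the mitochondrial share is low, with the aged sample at 31.4% mitochondrial counts having the highest share of 7.03%, and in TMM CPM that sample also stands near the top at 112000.

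Within Paneth cells the ratios among members do not depend on scaling between samples, and some differed from 0 with age. Lyz1 itself was 0.49 higher in the aged on the log2 scale. The same ratio had a median difference of -0.52 across 9688 other genes. A p-value against 0 thus cannot tell a change of the gene from a change of Lyz1. The share of all genes with aged samples below the young median is not given. Per 10,000 Lyz1 counts, Nupr1 gave 29.6 to 67.2 in young samples (median 43.2) and 11.6 to 34.7 in aged ones (median 24.5). All 12 aged samples lay below the young median, with overlap only between 29.6 and 34.7. The log2 ratio was lower by -0.83 in the aged (permutation within sex, p = 5e-05). Mptx2 gave 571 to 1160 in the young (median 808) and 268 to 710 in the aged (median 550), again with all 12 aged samples below the young median. Its difference was -0.65 (permutation within sex, p = 0.0008). Itln1 differed by -0.27, from a median of 6300 to 5170, with 11 of 12 aged samples below the young median (permutation within sex, p = 0.00234).

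For Mmp7 the medians were 646 and 684 per 10,000 and the difference 0.04 (permutation within sex, p = 0.754). Ang4, Lyz2 and Habp2 differed by -0.11, -0.18 and -0.24 (permutation within sex, p = 0.467, 0.691 and 0.199). These 7 ratios were chosen after the data were seen, and their p-values are not adjusted. Leaving out any 1 sample left the Nupr1 difference between -0.89 and -0.74 and that of Mptx2 between -0.70 and -0.58. Without the marked animals they were -0.81 and -0.60. These values stand against a median of -0.52 for the same ratio across 9688 other genes. Nupr1 lay below most of these genes (21.2% were lower) and Mptx2 nearer the middle (36.2% were lower). Itln1 lay above most of them (74.4% were lower), as did Mmp7 (90.1% were lower).

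In progenitors no member passed for age, where 0.728% of 11812 genes did. None of the 7 members tested had an unadjusted p below 0.05 in edgeR, and DESeq2 and limma-voom called none. Lyz1 ran from 188 to 359 TMM CPM in the young (median 242) and over the wider range of 69.6 to 845 in the aged (median 410). A difference in spread was not tested. Of 10 aged samples 6 lay above the highest young one, the lowest lay below the lowest young one, and the difference was 0.49 ± 0.34 (edgeR adjusted p = 0.749). That lowest sample, aged female replicate 3, was also the lowest aged one for Mmp7 (36.8), Itln1 (73.0), Mptx2 (0.397) and Nupr1 (1.06). Ang4 was at 4.23 to 113 in the aged (median 34) after a young median of 59.7, a difference of -0.96 ± 0.50 (edgeR adjusted p = 0.628). Habp2 differed by 0.67 ± 0.51, and Mptx2, Mmp7, Nupr1 and Itln1 by -0.40, -0.15, -0.13 and -0.04.

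In ISCs 0.351% of 11958 genes passed for age and none of the 6 members tested, again with no member at an unadjusted p below 0.05 and none called by DESeq2 or limma-voom. Differences ran from -0.29 for Mptx2 to 0.09 for Nupr1 (edgeR adjusted p = 0.943 to 0.996). Lyz1 had medians of 144 in young and 127 in aged ISCs. Unmarked and marked ISC samples gave opposite signs for 5 of the 6 genes: Nupr1 (-2.63 and 0.75), Ang4 (-1.76 and 0.71), Mptx2 (-1.16 and 0.14), Lyz1 (-0.88 and 0.27) and Mmp7 (-0.48 and 0.52). None of these passed, with the lowest edgeR adjusted p of 0.0507 for Ang4 in unmarked samples. The difference between the sets was not tested.

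The difference in age effect between populations was tested as an interaction. Lyz2 in both low populations and Habp2 in ISCs failed the filter on low counts there and entered only through other populations, so these tests say nothing of Lyz2 and little of Habp2. No member passed between Paneth cells and ISCs (0.0376% of 13287 genes did), between Paneth cells and progenitors (0.0% of genes) or between progenitors and ISCs (0.00753%), and DESeq2 and limma-voom called none. One member, Ang4, had an unadjusted p below 0.05, for Paneth cells against progenitors: 1.35 ± 0.55 on the log2 scale (edgeR p = 0.0167, adjusted p = 0.566). For Mmp7 this contrast was 0.75 ± 0.38 (edgeR adjusted p = 0.687).

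Sex was tested in Paneth cells. No member passed, where 0.0257% of genes did. The lowest p belonged to Itln1, at -0.36 ± 0.15 in males against females (edgeR p = 0.025, adjusted p = 0.999). In aged females Itln1 ran from 47100 to 61000 TMM CPM (median 56000) and in aged males from 20100 to 52700 (median 32900), while young medians were 34400 and 33600. The age effect did not pass for a difference between sexes in any member, nor in any gene (0.0% of genes, with 621 at an unadjusted p below 0.05, none of them a member, and none called by DESeq2 or limma-voom). It was -0.53 ± 0.31 for Lyz1, -0.66 ± 0.40 for Mmp7 and -0.52 ± 0.31 for Itln1, males against females (edgeR adjusted p = 0.923 to 0.945). Lyz1 medians were 60100 and 50900 in young males and females, and 79000 and 96200 in aged ones.

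How reproducible was each gene? Between technical libraries of the same animal the SD of log2 levels was 0.0796 for Lyz1, 0.0953 for Itln1, 0.124 for Ang4 and 0.145 for Mmp7, against 0.326, 0.316, 0.471 and 0.414 between animals of a group. For these genes most of the spread lay between animals. For Nupr1 (0.657 and 0.663) and Habp2 (0.545 and 0.591) the technical spread was about as large as that between animals. The value of an animal is here the mean of log2 levels over its 2 or 3 libraries, so its spread still holds part of the technical one.

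The members varied together from animal to animal. Over the 24 Paneth samples, after subtraction of group means, the 21 pairs without Lyz2 had Pearson r from 0.537 to 0.937 (median 0.827), highest for Mmp7 with Mptx2 and 0.905 for Lyz1 with Itln1. The points share library depth and scaling, so r is a description. In progenitors the median over these pairs was 0.525 and in ISCs 0.303. The genes outside the set most like Lyz1 among 9688 were the defensin-related AY761184 (r = 0.924), the alpha-defensin Defa24 (0.87) and Pnliprp2 (0.867), a pancreatic lipase relative. For Mmp7 they were Defa29 (0.905), Ccl6 (0.902) and Gm14851 (0.871), and for Nupr1 Defa21 (0.845), AY761184 (0.84) and Defa26 (0.839). Lyz2 went with AV064505 (0.943), Defa5 (0.926) and Defa34 (0.907), which fell to 0.708, 0.667 and 0.509 within marked and unmarked samples.

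Other genes of the Paneth cell were taken from lists. Their counts stand against the 29.2% of all genes that passed between young Paneth cells and ISCs, 26.1% between Paneth cells and progenitors and 22.7% between progenitors and ISCs. Of 27 further granule and secreted products tested, 26 were higher in young Paneth cells than in ISCs (median 7.73 on the log2 scale), among them Defa24 (8.70 ± 0.47), Defa29 (9.12 ± 0.51) and Pnliprp2 (7.86 ± 0.45). Against progenitors 21 were higher and 3 lower. In progenitors 12 of the 27 were higher than in ISCs and 3 lower, led by Guca2a (4.70), a guanylate cyclase activator, and Tff3 (4.10), a goblet cell peptide. Of 15 regulators of the secretory fate, 11 were higher in Paneth cells than in ISCs, including Bhlha15 (5.86 ± 0.42), a factor of secretory cell maturation, Ern2 (5.05 ± 0.43), a sensor of the endoplasmic reticulum, and Spdef (3.45 ± 0.37). Among 11 genes of lysozyme sorting and granule autophagy, 4 were higher: Sqstm1 (1.19), Atg7 (1.28), Rab2a (0.78) and Map1lc3b (0.41), a share near that of all genes. Of 11 genes of the integrated stress response, the pathway around Nupr1, 8 were higher, among them Atf3 (1.89), Herpud1 (1.15) and Atf4 (0.83). Relatives of the members were higher in 5 of 8 cases, led by Rnase1 (4.31) and Hgfac (3.26). Against young progenitors, 5 of the 15 regulators were higher in Paneth cells and 1 lower (median 0.18 on the log2 scale). Of the 11 stress response genes 6 were higher in that comparison and 1 lower. In young progenitors 10 of the 15 regulators were higher than in ISCs and 2 lower. All named genes had an edgeR adjusted p of 0.0215 or lower.

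For age in Paneth cells, 1 of 26 further granule products passed, Pnliprp2 at 0.70 ± 0.15 (edgeR adjusted p = 0.0404), from 1060 to 3070 TMM CPM in the young (median 1790) to 1520 to 3860 in the aged (median 3140). Its call was lost in 7 of 14 settings and in 13 of 24 fits without 1 sample. Of these 26 genes 19 were above 0 (median 0.17), and the share of all genes above 0 is not given here or below. No gene passed among 15 fate regulators (12 above 0, median 0.30), with Atoh1, the master factor of the secretory lineage, at 0.82 ± 0.25 (edgeR adjusted p = 0.316). None passed among 10 genes of sorting and autophagy, 6 relatives or 10 stress response genes. In aged progenitors the stress factor Atf3 was higher by 2.08 ± 0.47 (edgeR adjusted p = 0.0203), from 0 to 6.14 TMM CPM in the young to 1.64 to 23 in the aged. That call was lost in 4 of 10 settings.

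Markers of other crypt cells were present in the Paneth sort. In young mice 8 of 8 goblet, 10 of 10 enteroendocrine, 8 of 8 tuft and 8 of 8 enterocyte markers were higher there than in ISCs, and all 6 stem cell markers lower. Of 6 B, plasma and T cell markers tested, 5 were higher. Against progenitors 5 of 8 goblet markers were lower and 1 higher, while 8 of 8 tuft, 6 of 6 stem cell, 5 of 8 enterocyte, 4 of 10 enteroendocrine and 6 of 6 B, plasma and T cell markers were higher. Summed goblet markers ran from 4080 to 8230 TMM CPM in young and from 4940 to 13000 in aged Paneth samples, enteroendocrine markers from 188 to 3890 and from 228 to 3840, and tuft markers from 238 to 1690 and from 210 to 1080. None of these sums differed with age past an adjusted permutation p of 0.05. In progenitors the enteroendocrine sum did (83.3 to 333 in the young, 251 to 1140 in the aged, permutation adjusted p = 0.025), and 2 of 10 markers passed. The hormone gene Sct was higher by 0.75 ± 0.17 (edgeR adjusted p = 0.0227), a call lost in 1 of 10 settings and in 4 of 20 fits without 1 sample. The tachykinin gene Tac1 was higher by 1.96 ± 0.44 (edgeR adjusted p = 0.0483), a call lost in 6 of 10 settings and 16 of 20 such fits. The part of such cells in the member values was not tested.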

How the data were processed

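RNA of sorted Paneth cells, progenitors and ISCs was measured by a 3'-end method (SC3-seq) from 1 ng of RNA per library, per the labels' protocols. Per the submitters' processing notes, cutadapt 3.0, STAR 2.7.9a, HTSeq 0.13.5, DESeq2 1.30.1 and mm10 were used. The annotation release, the strand setting and the rule for reads that match several genes are not stated. The authors deposited raw gene counts for 112 libraries and the same counts as CPM. Each CPM value equals the count scaled to the library total within 4.95e-10, so only the counts were tested. Genes without a symbol in the name table held 0.00162% of counts.

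The 69 technical Paneth libraries were summed per animal, which left 67 samples from 36 named animals, 23 of which gave more than 1 population. One name occurs with and without the ending 2nd and was counted as 2 animals, so the animal count and the animal block rest on that reading. Library totals ran from 1.08 to 7.57 M counts, so a gene at 1 CPM rests on few reads. Genes passing filterByExpr (minimum count 10) were tested with the quasi-likelihood F test of edgeR 4.0.16 (TMM scaling, robust, R 4.3.3) and Benjamini-Hochberg adjustment over all genes tested, with an adjusted p of 0.05 as threshold. Age was tested within each population with sex as a term. Populations and interactions were tested in 1 fit of all samples, which ignores shared animals. SEs are the fold change divided by the root of F. Ratios to Lyz1 (0.5 counts added) and summed markers were compared by 2-sided permutation within sex (100000 permutations, smallest possible p of 1e-05). Neighbours by correlation were sought among genes above 5 TMM CPM. Alternatives were DESeq2 1.42.0, limma-voom 3.58.1, other scalings and filters, a replicate block, 1 technical library per animal and left-out samples. The test was checked on simulated data. For age in Paneth cells it recovered 38.8% of simulated 2-fold changes and 62.7% of 4-fold ones over genes of all levels. A member that did not pass for age may therefore still have changed. Other genes named are those with the smallest p of each list, with further ones where a count turns on them. The members and lists were chosen with earlier results of these data known. Sequences came from RefSeq (GRCm38.p6) and GENCODE M21. Stated sex matched the data in 67 of 67 samples.

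Same-numbered samples of the young and aged groups did not deviate together, with a median correlation of 0.0114 over 11 pairs in Paneth cells. The numbers were therefore not taken as pairs.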

Additional observations from a re-analysis of the deposited data

Results flagged for a closer look

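Within groups of 5 to 7 animals, 16 of 84 combinations of gene and group held 1 sample far from the rest by Dixon's test. Its critical values assume normal data, and the levels were not log-transformed, so the share flagged by chance is not known. The flagged samples were the highest of their group, except progenitor aged female replicate 3 for Mmp7. Groups share animals and the genes vary together, so these are not independent.

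Paneth young female replicate 6 stood highest for 3 genes: Mmp7 at 7430 TMM CPM with the next sample at 3440, Mptx2 at 10200 with the next at 4010, and Lyz2 at 58.7 with the next at 26.0. Mptx2 was also high in Paneth young male replicate 4 (7770, next 5190), and Ang4 in Paneth aged female replicate 1 (11200, next 7360). ISC young female replicate 1 was highest for Lyz1 (415, next 164) and Itln1 (236, next 77.8). ISC young male replicate 4 was highest for Itln1 (133, next 70.7) and Ang4 (37.1, next 11.5). Further high ISC samples were aged female replicate 2 for Ang4 (49.9, next 16.1), aged male replicate 5 for Mptx2 (21.4, next 5.45) and aged male replicate 6 for Nupr1 (8.72, next 2.08).

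Among progenitors, aged female replicate 3 was lowest for Mmp7, at 36.8 with the next sample at 196. Young male replicate 1 was highest for Ang4 (203, next 64.2). Habp2 was highest in young female replicate 4 (2.35, next 0.936) and in aged female replicate 4 (6.51, next 2.48).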

How the results depend on the processing

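All 8 members stayed past the threshold in Paneth cells against both other populations, young and aged, in every alternative run, including 67 fits that each left out 1 sample. For Lyz2, and for Habp2 against ISCs, these calls rest on entry to the fit through the Paneth level. Over 83 settings, 6970 member values were computed. Of these 173 changed sign, none of them past the threshold in either setting, and 21 changed their call. The cause of the changes was not tested. Depth limits Lyz2, Habp2 and Nupr1 outside Paneth cells, where many samples hold few counts or none.

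For age in Paneth cells the 8 genes called became 22 with unscaled totals (2 members), 30 with DESeq2, 14 with limma-voom, 2 without the animals of 26 and 27 months, 3 with the first technical library only, 346 with all 67 samples in 1 fit and 15 in marked animals alone. Leaving out 1 sample gave 3 to 13 genes and 0 to 1 member. For age in ISCs the 42 genes became 106 with DESeq2, 65 with the marked set as a term, 21 without marked animals and 18 in them alone. For age in progenitors the 86 genes became 142 with DESeq2, 34 without the animals of 26 and 27 months and 9 with all samples in 1 fit. For sex the 3 genes became 5 without the filter and 9 with DESeq2.

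With unscaled totals the median of all genes moved to -1.85 (log2) in young Paneth cells against ISCs and -1.70 against progenitors, and to -1.61 and -1.43 in the aged. The genes called then rose from 3878 to 11466 and from 3474 to 10716, and in the aged from 4000 to 11040 and from 3295 to 10110. With mitochondrial genes left out and totals unscaled they were 6395 (young) and 7135 (aged) against ISCs and 5229 against aged progenitors. Between progenitors and ISCs, leaving out marked animals gave 1792 instead of 3021 genes in the young and 1879 instead of 3329 in the aged. Members called in the aged were 2 instead of 5 without the animals of 26 and 27 months. Leaving out 1 sample gave 4 to 6 members in the young and in the aged. In the aged, Habp2 passed without ISC aged male replicate 6 (2.93, edgeR adjusted p = 0.000174) or ISC aged female replicate 4 (2.00, edgeR adjusted p = 0.0457) and without the marked animals (2.16, edgeR adjusted p = 0.0221), Mptx2 without ISC aged male replicate 5 (1.48, edgeR adjusted p = 0.0363), and Nupr1 missed without progenitor aged male replicate 3 (1.32, edgeR adjusted p = 0.0551). In the young, Mptx2 passed without ISC young female replicate 1 (1.48, edgeR adjusted p = 0.049).

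For the difference in age effect between Paneth cells and ISCs, the 5 genes became 3 with unscaled totals, 36 with DESeq2, 8 without the animals of 26 and 27 months, 69 with the first technical library and 0 without marked animals, and 0 to 10 with 1 sample left out. Between Paneth cells and progenitors, 0 became 17 with DESeq2 and 26 with the first technical library. Between progenitors and ISCs, 1 became 4 with DESeq2 and 0 without the animals of 26 and 27 months, without marked animals or with the animal as block, and 0 to 1 with 1 sample left out.

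With the replicate number within sex as a replicate block, age gave 8 genes in Paneth cells, 36 in ISCs and 72 in progenitors, with 0 members in each. Lyz1 stood at 0.59 and Mmp7 at 0.63 in Paneth cells (edgeR adjusted p = 0.115 and 0.156). With the animal as a replicate block in limma-voom, 8 members were called in Paneth cells against each other population. Between aged progenitors and ISCs, that fit called Mmp7, Itln1, Nupr1 and Habp2 (2.59, adjusted p = 0.00976) and not Lyz1 (1.08, limma-voom adjusted p = 0.255) or Ang4 (1.02, limma-voom adjusted p = 0.448), and limma-voom without the block made the same 3 changes (adjusted p = 0.00967, 0.265 and 0.467).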
